A study of Mus musculus with 19 samples.

Results

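The posterior Hoxa and Hoxd genes were followed across 4 tissues of the mouse embryo: Hoxa9, Hoxa10, Hoxa11 and Hoxa13 of the Hoxa cluster and Hoxd9, Hoxd10, Hoxd11, Hoxd12 and Hoxd13 of the Hoxd cluster. They were taken by gene symbol and make up 9 of the 18193 genes and 12 of the 45037 probe sets named or unnamed on the arrays, controls left out, and all 12 probe sets passed the filter on low values. The tissues were urogenital sinus epithelium (UGE), from which the prostate arises, its mesenchyme (UGM), and epidermis and dermis from the back skin. All came from untreated C57BL/6 embryos of stage E16, and each sample was pooled tissue of many embryos, with 6 UGE samples, 5 UGM samples and 4 samples of each skin layer. The labels do not state the sex of the embryos. Urogenital sinus was parted with trypsin and skin with Dispase, so the site of origin and the separation method cannot be told apart. Skin and urogenital sinus came from the same embryos, and pools of different groups can therefore share animals. The p-values measure the spread between these pools.

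Hox genes encode homeodomain transcription factors that give cells their position along the head to tail axis. Within each cluster the genes lie in the order in which they are used along that axis, and those at the posterior end, which resemble the fly gene Abdominal-B, pattern the hindmost trunk, the limb tips and the urogenital tract. Posterior members are needed for the normal shape and growth of the reproductive tract, Hoxd13 and Hoxa13 in the prostate among them. HOX proteins bind DNA together with cofactors of the PBX and MEIS families.

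Of the 2 clusters, Hoxa lies on chromosome 6 with 11 genes and Hoxd on chromosome 2 with 9. By their brightest probe sets, Hoxd13, Hoxd10, Hoxa9, Hoxa10 and Hoxa11 were over 2-fold higher in both layers of the urogenital sinus than in the matching skin layer. Hoxa9 differed more between the epithelia than between the mesenchymes. The other probe sets of Hoxd13 and Hoxa9 differed by less than 2-fold between the sites. The bases just before the start of Hoxd13, Hoxd10 and Hoxa9 are shown as 3 examples. They are the 250 bases upstream of the RefSeq start in build GRCm38.p6, 5′ to 3′ on the strand of the gene, with CCAAT and TATAAA matches on either strand in capitals. Hoxd13 is at chr2:74667975-74668224 on the plus strand, Hoxd10 at chr2:74691641-74691890 on the plus strand and Hoxa9 at chr6:52227371-52227620 on the minus strand.
Hoxd13: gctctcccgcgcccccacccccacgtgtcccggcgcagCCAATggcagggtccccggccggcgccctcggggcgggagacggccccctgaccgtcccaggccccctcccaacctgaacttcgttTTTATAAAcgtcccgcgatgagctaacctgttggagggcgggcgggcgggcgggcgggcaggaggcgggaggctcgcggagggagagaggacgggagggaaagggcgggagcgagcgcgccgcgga
Hoxd10: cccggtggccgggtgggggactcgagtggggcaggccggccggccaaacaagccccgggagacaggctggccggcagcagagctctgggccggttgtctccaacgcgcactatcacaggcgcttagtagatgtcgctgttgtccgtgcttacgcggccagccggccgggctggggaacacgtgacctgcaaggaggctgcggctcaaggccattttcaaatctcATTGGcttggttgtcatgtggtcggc
Hoxa9: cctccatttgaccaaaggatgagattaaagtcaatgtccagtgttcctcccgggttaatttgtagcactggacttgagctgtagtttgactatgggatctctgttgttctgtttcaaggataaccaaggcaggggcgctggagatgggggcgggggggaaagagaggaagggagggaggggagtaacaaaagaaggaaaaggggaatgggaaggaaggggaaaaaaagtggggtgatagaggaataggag
The Hoxd13 window was rich in CG pairs, with 31 of them and 74.4% G and C, and it held CCAAT at 212 bases before the start and TATAAA on both strands at 126 and 124 bases before it. The Hoxd10 window had 20 CG pairs and a CCAAT on the minus strand 26 bases before the start. The Hoxa9 window had only 3 CG pairs, 49.6% G and C, and none of the motifs searched. Across all 32851 windows of this length the median was 6 CG pairs and 52.4% G and C, against 13 and 59.2% over the 11 windows of the 9 members, of which Hoxa10 and Hoxd11 have more than 1. Motifs were searched on both strands. CCAAT lay in 5 of the 11 windows and in 33.85% of all windows, TATAAA in 2 and in 12.37%. The posterior HOX site CCAATAAA, which contains CCAAT, lay in none of the 11 and in 1.02% of all, and the MEIS site TGACAG in none and in 15.86%. The CDX site TTTATGA lay in none and in 3.348%, and the PBX-HOX site TGATTNAT in 1, of Hoxd11, and in 2.825%. These matches describe letters and not bound sites.

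Values are log2 of the authors' normalized intensity of the brightest probe set of a gene. The lower quartile of all probe sets on an array lay at 4.70 to 4.92 on this scale, which serves as a mark for a dim signal, and levels are compared between tissues and not between genes. A gene was called at an adjusted p under 0.01 (limma, Benjamini-Hochberg over all 41549 tested probe sets) together with a fold change over 2. Members are counted by their brightest probe set, while the shares beside them run over all tested probe sets, dimmer and unnamed ones included. The labels of the tissues fitted the direction of their marker genes, but each skin layer also held marker transcripts of the other layer. The summed intensity of 12 epithelial markers was 73944 to 78220 in UGE against 1854 to 4934 in UGM, and 51872 to 63632 in epidermis against 18124 to 35404 in dermis. For 12 mesenchymal markers it was 86847 to 92433 in UGM and 100732 to 128066 in dermis, 18701 to 42824 in epidermis, and 1557 to 5555 in UGE with the exception of UGE replicates 2 and 3, at 20494 and 20310. Markers of the urogenital sinus epithelium, Hoxb13 among them, summed to 34961 to 43140 in UGE and to at most 6774.5 elsewhere. Markers of epidermal differentiation summed to 82679 to 110731 in epidermis and to 23725 to 70267 in dermis, and the Schwann and neural crest markers had medians of 6.10 to 8.23 over all samples. Several other cell types differed between tissues. Summed neuronal markers were 19664 to 27132 in UGM and at most 873.8 elsewhere, smooth muscle markers 18621 to 21608 in UGM and at most 7120 elsewhere, and skeletal muscle markers 15843 to 28992 in dermis and at most 5492 elsewhere. Endothelial markers summed to 2205 to 3186 in UGM and 4088 to 6135 in dermis, macrophage markers to 2975 to 4165 and 8509 to 10163, and erythroid markers to 11080 to 15930 and 16031 to 21233. As the samples are bulk tissue, fewer cells of a type and less RNA per cell cannot be told apart.

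Both layers of the urogenital sinus carried higher levels of most posterior Hoxa and Hoxd genes than the matching skin layer. Hoxa9, Hoxa10, Hoxa11, Hoxd9, Hoxd10 and Hoxd13 were called higher in UGE than in epidermis, 6 of 9 members, where 6.98% of all tested probe sets were called higher. The same members other than Hoxd9 were called higher in UGM than in dermis, 5 of 9, where 6.78% of all were. None was called lower in either comparison, against 5.01% and 5.37% of all probe sets. The median difference over the 9 members was 2.27 on the log2 scale between the epithelia and 1.86 between the mesenchymes, and over all tested probe sets it was -0.05 and -0.05. All UGE samples lay above all epidermis samples for 8 of 9 members, and all UGM samples above all dermis samples for 8 of 9, while 13.3% and 16.5% of all probe sets did so. The members whose groups overlapped were Hoxd12 between the epithelia and Hoxd9 between the mesenchymes.

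**Figure D1:**
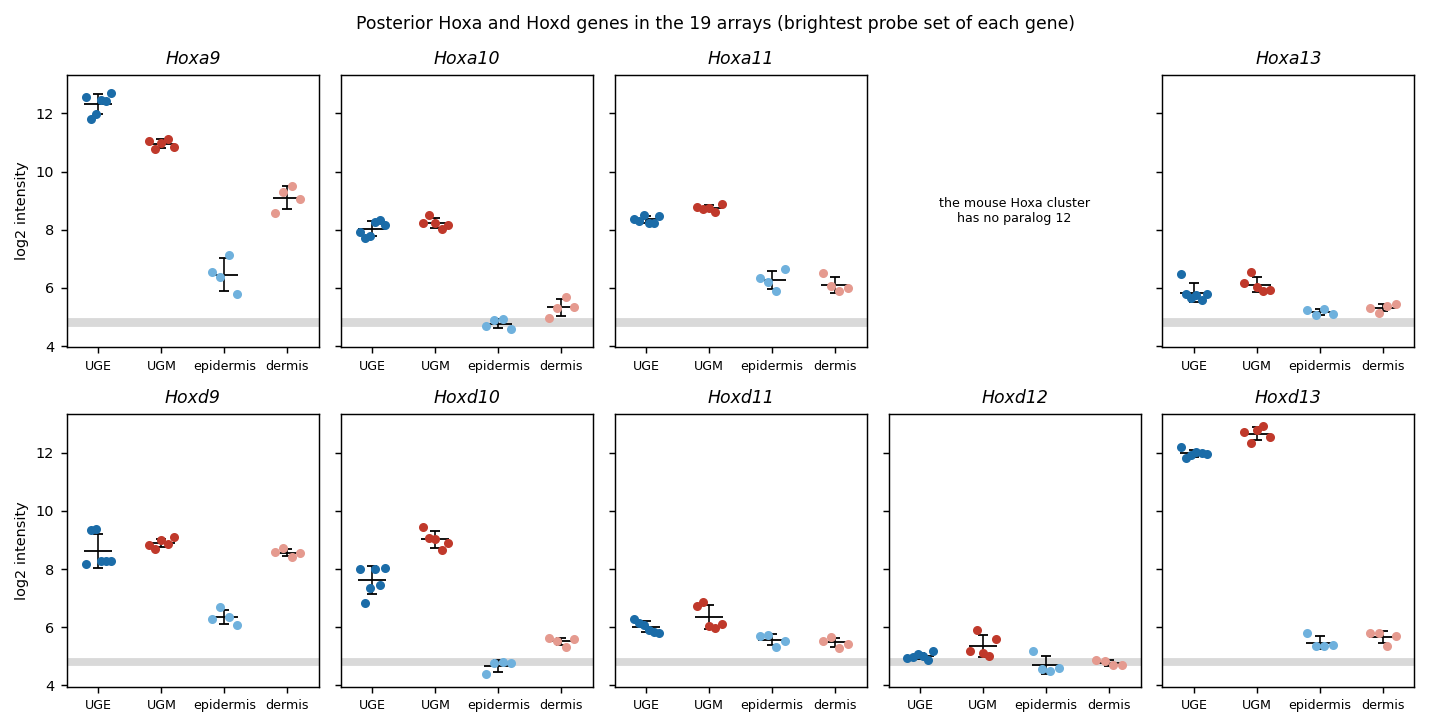
Log2 intensity of each member in the 19 arrays, with 1 point per array and a bar at the mean ± SD of the group (UGE n = 6, UGM n = 5, epidermis n = 4, dermis n = 4). The grey band is the range over arrays of the lower quartile of all probe sets, 4.70 to 4.92. Hoxd13 stood at 11.83 or more in every urogenital sinus array and at 5.81 or less in every skin array.

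Hoxd13, the last gene of its cluster and a regulator of digit and genital development, had the widest span of the members. Its log2 values were 11.83, 11.96 and 12.19 (lowest, median and highest) in UGE. In UGM they were 12.72, 12.33, 12.79, 12.91 and 12.55. The 4 epidermis samples lay at 5.80, 5.34, 5.37 and 5.39, and the 4 dermis samples at 5.81, 5.79, 5.37 and 5.69, so the urogenital sinus and the skin were parted by a wide gap and the skin layers overlapped. The difference was 6.50 ± 0.12 (SE) between UGE and epidermis, or 90.7-fold (adjusted p = 9.1e-17, limma), and 6.99 ± 0.13 between UGM and dermis, or 128-fold (adjusted p = 4.8e-17, limma). Both folds depend on low skin values, and with 50 added before log2 the differences were 5.43 and 6.01. All UGE samples lay below all UGM samples, yet the difference of -0.68 ± 0.11 (adjusted p = 0.00036, limma) was under 2-fold and was not called.

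Hoxd10, which acts in the limb, the spinal cord and the hindmost trunk, had values of 6.85, 7.71 and 8.03 (lowest, median and highest) in UGE. UGM lay at 9.45, 9.06, 9.03, 8.66 and 8.89. Epidermis lay at 4.38, 4.76, 4.79 and 4.77 and dermis at 5.62, 5.52, 5.33 and 5.59. No pair of tissues overlapped, and every neighbour in the order UGM, UGE, dermis, epidermis differed in the fit of all groups. In such orders, here and below, neighbours are said to differ at an adjusted p under 0.01, with no threshold on the fold. Dermis and epidermis were 0.84 apart, which is under 2-fold. UGE was higher than epidermis by 2.94 ± 0.20 (7.65-fold, adjusted p = 1.0e-09, limma) and UGM higher than dermis by 3.50 ± 0.21 (11.3-fold, adjusted p = 1.6e-10, limma). The epidermis values lay at or below the lower quartile of the arrays, so the fold between the epithelia is uncertain, and with 50 added before log2 the differences were 1.71 and 2.57, both still called.

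Hoxa10 and Hoxa11, which pattern the uterus, the vas deferens and the limb, were called higher in both layers of the urogenital sinus. Hoxa10 had values of 7.73, 8.05 and 8.35 (lowest, median and highest) in UGE and of 8.23, 8.52, 8.23, 8.02 and 8.16 in UGM. It lay at 4.68, 4.91, 4.93 and 4.59 in epidermis and at 4.98, 5.31, 5.69 and 5.33 in dermis. UGE and UGM overlapped, and both stood above all skin samples, by 3.27 ± 0.15 between the epithelia (9.62-fold) and 2.90 ± 0.15 between the mesenchymes (7.47-fold). Its epidermis values also lay about the lower quartile, and with 50 added the differences were 2.02 and 1.95, both still called. Hoxa11 had values of 8.24, 8.34 and 8.51 in UGE, and of 8.77, 8.70, 8.76, 8.60 and 8.90 in UGM. It lay at 6.34, 6.20, 5.90 and 6.64 in epidermis and at 6.50, 6.07, 5.89 and 5.99 in dermis. The skin layers overlapped, and the urogenital sinus stood above them by 2.09 ± 0.13 between the epithelia (4.25-fold) and 2.64 ± 0.14 between the mesenchymes (6.21-fold). In the order of the levels, taken from the fit of all 4 groups, the only neighbours that differed for either gene were UGE and the higher of the skin layers. For Hoxa11, UGE and UGM passed the adjusted p in the fit of their own samples, as given with the layers.

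Hoxa9, best known for its part in blood progenitors and in patterning of the hind trunk, was the member with the largest difference between the epithelia after Hoxd13. Its values were 11.81, 12.46 and 12.71 (lowest, median and highest) in UGE. UGM lay at 11.06, 10.78, 10.99, 11.13 and 10.86, dermis at 8.56, 9.29, 9.50 and 9.07, and epidermis at 6.55, 6.37, 7.13 and 5.78. No tissues overlapped, and each neighbour in the order UGE, UGM, dermis, epidermis differed. UGE was higher than epidermis by 5.87 ± 0.23 (58.5-fold, adjusted p = 4.0e-13, limma), and UGM was higher than dermis by 1.86 ± 0.24 (3.63-fold, adjusted p = 4.5e-06, limma).

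Hoxd9, a partner of Hoxa9 in forelimb and sacral patterning, overlapped between dermis and the urogenital sinus. It had values of 8.16, 8.28 and 9.37 (lowest, median and highest) in UGE, with replicates 2 and 3 at 9.34 and 9.37 and the other 4 samples at 8.16 to 8.28. UGM lay at 8.84, 8.70, 8.99, 8.86 and 9.09, dermis at 8.60, 8.71, 8.40 and 8.55, and epidermis at 6.28, 6.68, 6.36 and 6.09. In the order UGM, UGE, dermis, epidermis the only neighbours that differed were dermis and epidermis. The place of UGE rests on replicates 2 and 3, since the other 4 UGE samples lay below every dermis sample. UGE was higher than epidermis by 2.27 ± 0.22 (4.81-fold, adjusted p = 1.2e-07, limma), while UGM and dermis differed by 0.33 ± 0.23 (adjusted p = 0.27, limma).

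Hoxa13, Hoxd11 and Hoxd12 had group means that spanned only 0.94, 0.86 and 0.65 on the log2 scale, and none was called in any comparison. Hoxa13, which is needed with Hoxd13 in the hindgut, the genital tubercle and the prostate, lay at 5.57 to 6.47 in UGE and 5.90 to 6.56 in UGM, with epidermis at 5.07 to 5.27 and dermis at 5.14 to 5.44. Its differences of 0.66 ± 0.15 between the epithelia (adjusted p = 0.0021, limma) and 0.80 ± 0.16 between the mesenchymes (adjusted p = 0.00058, limma) passed the adjusted p but were under 2-fold. Hoxd11, which shapes the kidney and the limb together with Hoxa11, lay at 5.81 to 6.28 in UGE and 5.99 to 6.87 in UGM, and at 5.29 to 5.74 in skin. It differed by 0.86 ± 0.17 between the mesenchymes (adjusted p = 0.00057, limma), also under 2-fold. Hoxd12, which acts in the limb, lay at 4.88 to 5.92 in the urogenital sinus and at 4.51 to 5.18 in skin, and thus near the lower quartile of all probe sets. It differed by 0.58 ± 0.17 between the mesenchymes (adjusted p = 0.0095, limma), again under 2-fold. A dim probe set does not show that a transcript was absent.

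Between UGE and UGM, Hoxa9 was called higher and Hoxd10 lower, 2 of 9 members, where 13.3% of all probe sets were called, 5.85% higher and 7.4% lower. Hoxa9 was higher in UGE by 1.36 ± 0.16 (2.57-fold, adjusted p = 2.4e-05, limma) and Hoxd10 lower by 1.41 on the log2 scale, with an SE of 0.22 (adjusted p = 0.00030, limma). The median difference over the members was -0.34, against 0.06 over all probe sets. All UGE samples lay below all UGM samples for Hoxa11, Hoxd10 and Hoxd13 and above them for Hoxa9, where 12.3% and 13% of all probe sets did so. Hoxa11 passed the adjusted p with a difference under 2-fold, -0.39 ± 0.08 (adjusted p = 0.0026, limma). UGE replicates 2 and 3, with the high sums of mesenchymal markers, had the lowest UGE values of Hoxa9 (11.81 and 11.97) and Hoxa10 (7.73 and 7.77). The same held for Hoxd10 (6.85 and 7.36) and Hoxd13 (11.83 and 11.91). The mean of UGM was below that of UGE for Hoxa9 and above it for Hoxa10, Hoxd10 and Hoxd13. The Hoxd9 values of replicates 2 and 3, 9.34 and 9.37, were the highest of UGE and lay above every UGM sample (8.70 to 9.09). For the other members these samples did not lie together at either end. In replicates 2 and 3 the duct markers, those of the mesonephric and Mullerian ducts, also had the highest medians, 8.43 and 8.77. The other UGE samples lay at 6.60 to 7.16. The erythroid markers of replicates 2 and 3 summed to 5343 and 5317 against 240.3 to 525.9. Without both samples the difference of Hoxd9 moved from -0.28 ± 0.24 to -0.65 ± 0.09 (adjusted p = 0.00020, limma), still under 2-fold, and Hoxa9 and Hoxd10 were still called, at 1.58 and -1.15. What part these transcripts have in the differences was not tested.

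Between epidermis and dermis, Hoxa9 and Hoxd9 were called lower in epidermis and no member higher, where 13.7% of all probe sets were called, 7.6% lower and 6.07% higher. Hoxa9 fell by 2.65 on the log2 scale with an SE of 0.28 (adjusted p = 7.8e-05, limma), and Hoxd9 fell by 2.22 with an SE of 0.14 (adjusted p = 4.9e-06, limma). All epidermis samples lay below all dermis samples for these and for Hoxa10 and Hoxd10, 4 of 9 members, against 16% of all probe sets. No member had all epidermis samples above all dermis samples, against 17.1% of all. Hoxd10 differed by -0.84 ± 0.13 (adjusted p = 0.00059, limma), under 2-fold, and Hoxa10 by -0.55 ± 0.16 (adjusted p = 0.020, limma). The epidermis samples held mesenchymal transcripts, and replicate 4, with the lowest sum of the mesenchymal markers at 18701, also had the lowest values of Hoxa9 (5.78), Hoxa10 (4.59) and Hoxd9 (6.09), while Hoxd10 was lowest in replicate 1 (4.38) and lay at 4.77 in replicate 4. Dermis replicate 1, with the highest sum of the epithelial markers at 35404, had the lowest dermis values of Hoxa9 (8.56) and Hoxa10 (4.98) and the highest of Hoxd10 (5.62). Their part in the differences was not tested.

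**Figure D2:**
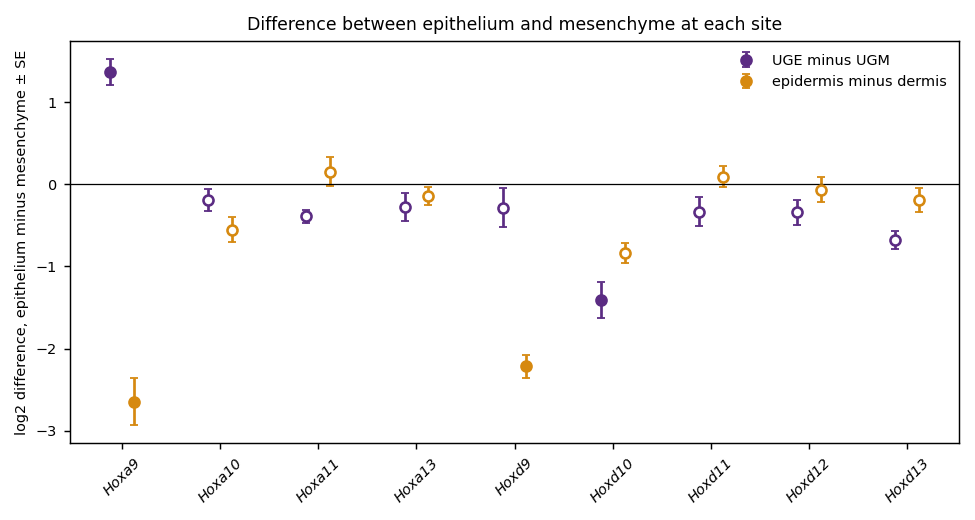
Log2 difference between epithelium and mesenchyme (± SE) of each member in the urogenital sinus and in skin, with filled points for called differences and open points for the others. Hoxa9 lies at 1.36 in the urogenital sinus and -2.65 in skin, and Hoxd9 at -0.28 and -2.22.

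For Hoxa9 and Hoxd9 the difference between the layers depended on the site, which was tested as the interaction, UGE minus UGM less epidermis minus dermis. It was 4.01 ± 0.33 for Hoxa9 (adjusted p = 3.3e-08, limma) and 1.93 ± 0.32 for Hoxd9 (adjusted p = 0.00015, limma), 2 of 9 members called higher where 9.31% of all probe sets were called, 5.15% higher. Hoxa9 was higher in the epithelium at one site and in the mesenchyme at the other. For Hoxd9 the same contrast read as a site difference of 2.27 in the epithelium and of 0.33 in the mesenchyme. No member was called lower, against 4.17% of all. The other 7 members gave -0.57 to 0.36, with Hoxa11 at -0.55 ± 0.19 (adjusted p = 0.049, limma) and Hoxd13 at -0.49 ± 0.18 (adjusted p = 0.066, limma). Without UGE replicates 2 and 3 the interaction of Hoxd9 was 1.56 ± 0.16 and was still called.

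The values of 3 members rest on the choice of probe set, since Hoxa9, Hoxa10 and Hoxd13 each have another, dimmer one. The second probe set of Hoxd13 (1422239_at) lay at 5.27 to 6.80 in all 19 samples, against 5.34 to 12.91 for the first (1440626_at). It differed by 0.36 ± 0.18 between the epithelia (adjusted p = 0.13, limma) and 0.73 ± 0.19 between the mesenchymes (adjusted p = 0.0053, limma), and neither was called. The second probe set of Hoxa9 (1421579_at) lay at 6.31 to 7.38 and was called in no comparison, at 0.71 ± 0.11 between the epithelia, -0.18 ± 0.11 between the mesenchymes, 0.43 ± 0.10 between the layers of the urogenital sinus, -0.46 ± 0.13 between those of the skin and 0.89 ± 0.16 for the interaction. The first of Hoxa9 is 1455626_at. The second probe set of Hoxa10 (1446408_at) was called higher in UGE than in epidermis, at 1.24 ± 0.16, and stood at 0.97 ± 0.17 between UGM and dermis, just under 2-fold. The first of Hoxa10 is 1431475_a_at. Which transcripts or exons each probe set reads was not analysed here.

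**Figure D3:**
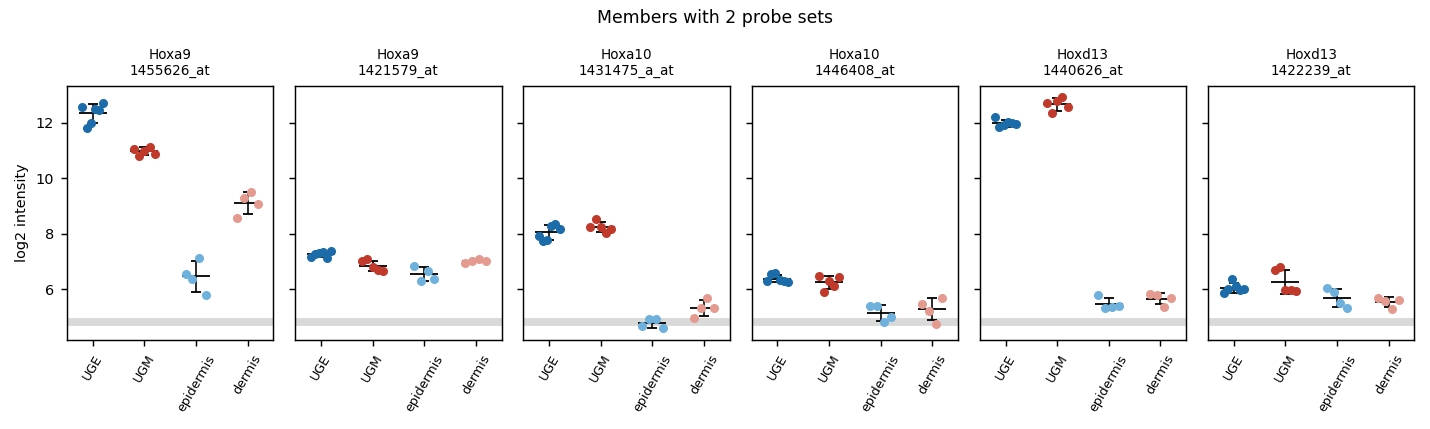
Log2 intensity of both probe sets of Hoxa9, Hoxa10 and Hoxd13 in the 19 arrays, with bars at the mean ± SD and the grey band as the range of the lower quartile, 4.70 to 4.92. The brighter probe set of Hoxd13 spans 5.34 to 12.91 and the dimmer one 5.27 to 6.80.

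Among the anterior and central genes of the same clusters, none was called higher in UGM than in dermis, where 6.78% of all probe sets were. Of 11 such genes 8 were measured, and 3 were called lower in UGM, against 5.37% of all, with a median difference of -0.79. Hoxd8, a central gene next to Hoxd9, was lower by 1.97 with an SE of 0.14, Hoxd1 differed by -1.27 ± 0.25 and Hoxa4 by -1.04 ± 0.16, each called. In UGE 2 were called higher than in epidermis and 1 lower, against 6.98% and 5.01% of all probe sets. Hoxd1 was higher by 2.60 ± 0.24 and Hoxd8 by 2.12 ± 0.14, Hoxa4 differed by -2.11 ± 0.16, and the median over the 8 genes was -0.06. For Hoxd8 the layers thus differed in opposite directions at the sites, by 1.69 ± 0.11 in the urogenital sinus and -2.41 ± 0.16 in skin. Hoxa2, Hoxa3, Hoxa5, Hoxa7 and Hoxd3 were called in neither site comparison. Between the epithelia Hoxd3 stood at 0.95 ± 0.17 (adjusted p = 0.00020, limma), just under 2-fold.

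**Figure D4:**
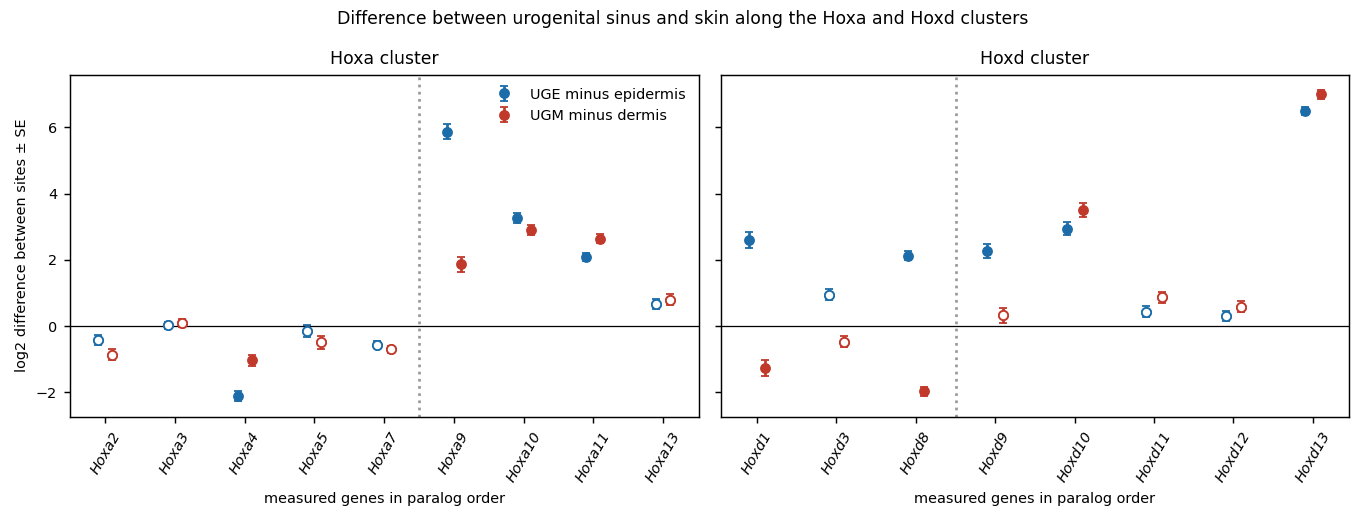
Log2 difference (± SE) between UGE and epidermis and between UGM and dermis for the measured genes of the Hoxa and Hoxd clusters in paralog order, with filled points for called differences and a dotted line before the posterior members. In the mesenchyme, Hoxd8 lies at -1.97, Hoxd9 next to it at 0.33 and Hoxd10 next to that at 3.50.

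Genes around the clusters were read from a list of 11 neighbours, 10 of them measured. Evx1, a homeobox gene beside Hoxa13, was higher in UGE than in epidermis by 2.74 ± 0.25 and in UGM than in dermis by 2.16 ± 0.26, though Hoxa13 was called in neither. Evx2, beside Hoxd13, had group means of 5.52 to 5.70 and was not called in any comparison. Chn1, a Rac GTPase-activating protein, was the other neighbour called between the epithelia, at 1.51 ± 0.20, and no other was called between the mesenchymes. Of all probe sets 6.98% were called higher between the epithelia and 6.78% between the mesenchymes. Between the layers, Chn1 was lower at both sites and Skap2, an adaptor protein named here only because the count was small, was higher at both. Of 7 antisense and noncoding RNAs of the clusters 2 were measured. Hoxa11os, transcribed against Hoxa11, was higher in UGE by 2.72 ± 0.13 and in UGM by 2.76 ± 0.13, and Hoxd3os1 was higher between the epithelia by 2.69 ± 0.32.

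Posterior genes of the other clusters, 5 of 7 of them measured, included 2 with large differences. Hoxb13, a marker of prostate epithelium, was higher in UGE than in epidermis by 5.23 ± 0.20 and not called between the mesenchymes, at 0.18 ± 0.21. Hoxc10, a hindlimb and lumbar gene, was higher in UGM than in dermis by 2.74 ± 0.28 and not called between the epithelia, at -0.11 ± 0.27. Both were also called between UGE and UGM, at 4.94 ± 0.22 and -4.82 ± 0.19, which was further from 0 than for any of the 9 members. The other 3, Hoxb9, Hoxc9 and Hoxc13, were called in no comparison.

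HOX cofactors, 8 of 9 of them measured, had 2 members called higher between the epithelia and 3 between the mesenchymes, and none lower. Of all probe sets, 6.98% were called higher and 5.01% lower between the epithelia, and 6.78% and 5.37% between the mesenchymes. Meis1 was higher by 2.88 ± 0.13 and 1.62 ± 0.14, Meis2 by 2.79 ± 0.16 and 2.37 ± 0.17, and Pknox2 in the mesenchyme by 2.21 ± 0.21. All 3 encode homeodomain proteins of the TALE class, with which HOX proteins pair. Of 11 regulators that act on Hox clusters, such as CDX factors and Polycomb and trithorax proteins, 10 were measured and none was called between the sites. One of them, the Polycomb gene Bmi1, was lower in UGE than in UGM, at -1.25 ± 0.29, where 7.4% of all probe sets were called lower. Bmi1 was named because it was the only one called. Of 10 genes that have been reported as targets of posterior HOX proteins, 9 were measured, with 4 called higher and 3 lower between the epithelia and 3 higher and 2 lower between the mesenchymes. Aldh1a2, which makes retinoic acid, was higher by 4.66 ± 0.11 and 6.10 ± 0.12, and the integrin gene Itga8 by 2.94 ± 0.18 and 1.55 ± 0.18. Sostdc1, an antagonist of BMP and Wnt signals, differed by -5.29 ± 0.14 and -2.93 ± 0.14. In the mesenchymal comparison several marker sums moved too. Those of neurons and smooth muscle were higher in UGM, and those of skeletal muscle and epidermal differentiation were lower, among others. The part of these cell types in the differences was not tested.

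Genes whose levels ran most like those of a member were sought for the 6 members with group means that spanned more than 2 log2 units, by the root mean square difference of log2 values over the 19 samples after each gene was centred on its mean. Nearest to Hoxd13 was Isl1, a LIM homeodomain factor, at 0.65, then Mgp at 0.96 and Ret, the GDNF family receptor, at 1.13. Nearest to Hoxa9 were Six4 at 0.70, Mecom at 0.74 and Aldh1a3 at 0.74, all 3 with their highest mean in UGE and their lowest in epidermis. Hoxa10 had Foxc1 at 0.31, Meis2 at 0.33 and Cadps2 at 0.35. Hoxa11 had Pde9a at 0.20, Evx1os, an antisense RNA beside the same cluster, at 0.26 and Map7d2 at 0.31. Hoxd9 had Inpp1 at 0.25, Tead2 at 0.29 and Cd276 at 0.30, and Hoxd10 had Erc2 at 0.30, Cxxc4 at 0.41 and Unc5c at 0.45. Members were left out of this search. Among pairs of members that include at least 1 of these 6, the closest were Hoxa10 with Hoxa11 and Hoxa10 with Hoxd10, both at 0.56. Pairs among Hoxa13, Hoxd11 and Hoxd12 were not compared.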

How the data were processed

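Total RNA of the 19 samples was read on MOE430 2.0 arrays after 2 rounds of labelling. The deposited values are linear intensity per probe set, normalized between arrays by the authors. The submitters name GCOS 1.4, and the study's methods also name MAS5 calls and PLIER, but no source used here says which of them made the table. Array medians were 76.2 to 81.6. The number of arrays limits the precision.

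Intensities were put on the log2 scale without further normalization. The table has 45101 probe sets, of which 64 are controls and were dropped. Tests ran on the 41549 with any value over 20. Of the 45037, 34945 have 1 gene symbol, 932 several and 9160 none in the platform annotation. A gene is given by its brightest tested probe set with 1 symbol. The moderated 2-sided test of limma 3.58.1 (R 4.3.3) was fitted to the samples compared for UGE against UGM and epidermis against dermis, and to all 4 groups for the other contrasts, and was tested on simulated data. Named were all 9 members, the 3 nearest genes of each member that spans over 2 log2 units, and per gene list up to 3 called genes with the largest site difference. Some genes named beside a small count are outside this rule and were picked once their values were known. The members, lists and alternatives were chosen with earlier results of these data known. Alternatives were quantile normalization, 50 added before log2, other filters, the methods' t-test, eBayes with trend and robust, other samples in the fit, the replicate block, other probe sets, an adjusted p under 0.05, and samples left out.

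Deviations of same-numbered epidermis and dermis samples from their group means correlated at 0.343, 0.108, 0.264 and 0.168, so these numbers may pair the samples, a hint from the data only. Promoter windows are from RefSeq.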

Additional observations from a re-analysis of the deposited data

Results flagged for a closer look

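The difference between epithelium and mesenchyme differed between urogenital sinus and skin for Hoxa9, by 4.01 on the log2 scale, and for Hoxd9, by 1.93, in the test of the interaction. Single samples that stood apart from their group were sought in 36 groups of the 9 members, and 4 were found, where chance gives about 1 in 20 groups. Hoxa13 in UGE replicate 1 lay at 6.47, with the others at 5.57 to 5.79. The other 3 were all epidermis replicate 1, with Hoxd10 at 4.38 (others 4.76 to 4.79), Hoxd12 at 5.18 (others 4.51 to 4.59) and Hoxd13 at 5.80 (others 5.34 to 5.39).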

How the results depend on the processing

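Under the alternatives in which all 9 members could be counted, the counts of members called were the same, except that no member was called higher in UGE than in UGM, in place of 1, when the probe sets of a gene were averaged, where Hoxa9 was at 0.89, and that 4 in place of 5 were then called higher in UGM than in dermis, where it was at 0.84. Leaving out each sample in turn gave 1 higher and 1 lower for UGE against UGM, 0 and 2 for epidermis against dermis, 6 and 0 for UGE against epidermis, 5 and 0 for UGM against dermis and 2 and 0 for the interaction. The second probe set reversed Hoxa10 in UGE against UGM (0.14), Hoxd13 in epidermis against dermis (0.15) and Hoxa9 in UGM against dermis (-0.18), and left Hoxa9 and Hoxd13 uncalled throughout. Hoxd12 in epidermis against dermis, at -0.07, ranged from -0.22 to 0.0020 with 1 sample left out, the last without epidermis replicate 3. The causes were not tested. With 50 added before log2, which shrinks differences that rest on dim values, Hoxa10 and Hoxd10 in UGE against epidermis went to 2.02 and 1.71, and both were still called. With the replicate block no call on a member changed, and 5264 probe sets were called for UGE against UGM in place of 5506, 5904 for epidermis against dermis in place of 5681, and 3675 for the interaction in place of 3870. Same-numbered UGE and UGM samples correlated at 0.648, 0.006, -0.122, 0.138 and -0.406. Only for replicate 1 was the same-numbered sample the best match, so whether these numbers pair the samples is not settled. The block was not fitted for the site contrasts. The filter on a median over 50 (27082 probe sets) drops Hoxd12, so no count over the 9 members was made there. Signal near the lower quartile of the arrays limits Hoxd12, and Hoxa10 and Hoxd10 in epidermis.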
